A study of Mus musculus with 90 samples.

Results

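Iron handling by the mouse liver was followed through 10 genes, namely the hepcidin genes Hamp and Hamp2, the transferrin receptors Tfrc and Tfr2, transferrin (Trf), ferroportin (Slc40a1), the ferritin chains Fth1 and Ftl1, the ligand Bmp6, and its target gene Id1. They were taken by name from a table of RNA-seq values with 24308 gene symbols, and each gene was represented by the RefSeq transcript with the highest mean over all libraries. All 10 passed the filter on low values in each of 5 RNA experiments. Hamp2 was higher in livers that lacked the glucocorticoid receptor (GR) and in livers that lacked the insulin receptor substrates Irs1 and Irs2, by 3.50-fold and 5.96-fold in mean RPKM (read counts scaled by transcript length and sequencing depth). Id1 was higher in the livers without GR, Hamp and Id1 were higher after a meal in lean mice, and Bmp6 was lower in obese than in lean mice before the meal. These were the 6 differences past the threshold among 150 pairs of gene and comparison, and the genes of iron uptake, export, and storage gave none in these fits. Of all genes, 6.68% were called without GR and 17.4% without Irs1 and Irs2. The share was 23.4% for the meal in lean mice and 5.22% for obese against lean mice before the meal. In the comparisons without a call on the 10 genes it ran from 0.00% to 10.6%. The calls on 2 of 10 genes for the meal in lean mice did not exceed the share of all genes. Neither did the call on 1 of 10 without Irs1 and Irs2. Both calls on Hamp2 held with any 1 library left out, and those on Hamp, Id1, and Bmp6 were lost in some such fits. Tfrc and Slc40a1 were called after the insulin receptor antagonist S961 when a term for the series of library numbers was added, and Tfrc, Trf, Slc40a1, and Ftl1 were called in the livers without Irs1 and Irs2 when 1 library that stood apart was left out. That library was singled out by its levels of iron genes, so the fit without it is no independent support for these calls.

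Hepcidin is a peptide hormone that hepatocytes secrete, and it binds ferroportin, the iron exporter of gut, macrophage, and liver cells, and leads to its degradation, so that less iron enters the blood. BMP6, made largely by the endothelial cells of the liver sinusoids, acts with the co-receptor hemojuvelin through SMAD factors to raise transcription of the hepcidin gene and of Id1, and interleukin-6 acts on the same promoter through STAT3. Transferrin receptor, ferritin, and ferroportin messages also carry iron-responsive elements (IREs), RNA hairpins through which iron regulatory proteins set message stability or translation.

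The livers came from mice on night-restricted feeding (NRF), in which food was present in the dark phase only, and were taken at ZT10 or at ZT14, with ZT12 as the start of darkness. In the NRF experiment, wild-type C57BL/6 males (C57BL/6N by the methods) of 10 weeks were sampled at ZT10, at ZT14 after 2 h of food (ZT14-fed), or at ZT14 without food (ZT14-unfed), with 2 libraries each. In the injected mice, of the same strain and age, vehicle (PBS), 1 mg/kg of the synthetic glucocorticoid dexamethasone (dex), the insulin receptor antagonist S961, or dex plus S961 was given 30 minutes before ZT12 and food followed, and a further vehicle group stayed unfed, with 4 libraries each at ZT14. The dose of S961 is given as 44 nM per mouse in the sample labels and as 44 nmol/kg in the study's methods. The GR experiment compared unfed Nr3c1 fl/fl mice on a C57BL/6 background (C57BL/6N by the methods), with 4 libraries each. They were injected with an AAV 2 weeks before NRF by the labels, and slightly later by the methods. It carried Cre or, as control, GFP under the hepatocyte-specific Tbg promoter. Other liver cells would thus keep the gene, which was not measured by cell type. The insulin experiment compared mice with Irs1 fl/fl and Irs2 fl/fl alleles on a C57BL/6 background (C57BL/6J by the methods), with Alb-Cre (L-IRSdKO, liver-specific double knockout) or without, at 10 weeks of age and with 4 libraries each, and every one of these mice received 1 mg/kg dex and food. The obesity experiment compared lean mice on chow and diet-induced obese (DIO) mice on a high-fat diet, all wild-type C57BL/6, after 10 weeks of diet (the high-fat diet from 5 weeks of age) and 4 days of NRF, unfed or fed at ZT14, with 3 libraries each. Every library came from 1 mouse.

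RNA of the NRF experiment was ribosome-depleted and that of the others poly(A)-enriched. Levels were compared within an experiment only, since they also differed between experiments of the same library type. Ftl1, for example, had group means between 106 and 117 RPKM in the insulin experiment. In the GR experiment, also poly(A)-enriched, they lay between 3298 and 3491 RPKM, and the cause was not tested. Relative depth, read from the spacing of the lowest RPKM values, was smallest in the insulin libraries, which lay at 5.83% to 7.18% of the deepest library, and those of the obesity experiment ranged from 27.2% to 100%. The read numbers listed in the paper's supplement put the insulin libraries at a larger share of the deepest one. All 6 hepatocyte markers were found in every group. Their summed RPKM was 2551 to 2997 in the insulin libraries, however, and 29252 to 75494 over the libraries of the other experiments. The cause of this gap was not tested. Nr3c1 was at 14.2 RPKM ± 1.55 (SD, n = 4) with AAV-GFP and 4.41 ± 0.637 (n = 4) with AAV-CRE, and Irs1 at 4.03 ± 1.22 (n = 4) without and 0.199 ± 0.082 (n = 4) with Alb-Cre. Irs2 fell between 0.272 and 1.00 RPKM in L-IRSdKO and between 0.614 and 5.61 RPKM in fl/fl livers, so that the groups overlapped. L-IRSdKO replicate 1 stood apart from its group in iron genes, with Scara5, a receptor for ferritin, at 40.8 RPKM against 1.17 to 4.25 RPKM in the other 3 L-IRSdKO libraries and 41.4 to 58.0 RPKM in fl/fl livers, although Irs1 was as low in it as in the rest. Results of that experiment are given with and without it. Since it was singled out by iron genes, a call on an iron gene without it rests in part on the same values.

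The upstream sequences of both hepcidin genes are shown because they differ in one of the elements through which BMP signaling reaches Hamp. Both genes lie on the minus strand of chromosome 7 in mm9, Hamp at chr7:31727390-31729036 with 3 exons and Hamp2 at chr7:31707391-31709200 with 3 exons. The 250 bases before each annotated start, chr7:31729037-31729286 and chr7:31709201-31709450, were read from the mm9 genome, 5′ to 3′ along the gene.
Hamp upstream: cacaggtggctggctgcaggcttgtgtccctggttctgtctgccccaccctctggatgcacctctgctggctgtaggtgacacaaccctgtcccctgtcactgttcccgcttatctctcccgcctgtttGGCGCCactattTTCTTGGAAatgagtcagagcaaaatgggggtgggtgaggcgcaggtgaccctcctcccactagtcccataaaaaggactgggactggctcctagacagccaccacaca
Hamp2 upstream: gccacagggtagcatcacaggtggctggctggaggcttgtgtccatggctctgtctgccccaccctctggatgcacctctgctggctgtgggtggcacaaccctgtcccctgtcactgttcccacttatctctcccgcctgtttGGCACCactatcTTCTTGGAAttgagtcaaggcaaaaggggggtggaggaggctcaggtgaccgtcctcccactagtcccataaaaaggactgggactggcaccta
Capitals mark the BMP-responsive element GGCGCC of Hamp with its counterpart in Hamp2, and the STAT site that follows. Counted from the annotated start, GGCGCC lies at -121 to -116 in Hamp and its counterpart GGCACC at -106 to -101 in Hamp2, a difference of G4A with positions counted from the first base of the element. The STAT site TTCTTGGAA is shared, at -109 to -101 in Hamp and -94 to -86 in Hamp2, and 218 of 250 aligned columns were identical (87.2%). The marked motifs do not overlap. On both strands, GGCGCC was found in 11.1% and TTCNNNGAA in 6.83% of the 250-base upstream regions of 22375 genes, and neither hepcidin gene held the GR motif AGAACA or the FOXO motif GTAAACA in this window. A match describes letters only.

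Because the genes are alike, their reads may be split uncertainly. Of the 32-base stretches of Hamp exons, 35.5% also occur in the mm9 genome outside the gene, and 33.7% of those of Hamp2. The share was 55.8% for Ftl1 and 20.5% for Fth1, against 5.29% for Trf, 1.57% for Bmp6, 0.143% for Tfrc, and 0 for Tfr2, Slc40a1, and Id1.

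IREs are shown for the 4 genes in which the letters were found, a loop of CAGTGN closed by 5 paired bases with an unpaired c before them. Each line gives 28 bases with the loop in capitals.
Fth1, 5′ UTR: gtttcctgcttcaaCAGTGCttgaacgg
Ftl1, 5′ UTR: gtgtcttgcttcaaCAGTGTttgaacgg
Slc40a1, 5′ UTR: tccaacttcagctaCAGTGTtagctaag
Tfrc, 3′ UTR: ataattatcggaagCAGTGCcttccata
Tfrc, 3′ UTR: cacattatcgggagCAGTGTcttccata
Tfrc, 3′ UTR: gtaattatcgggaaCAGTGTttcccata
Tfrc, 3′ UTR: gtctatatcggagaCAGTGAtctccata
The pattern was rare, with 22 of 19945 genes (0.11%) in the 5′ UTR and 93 of 20007 (0.465%) in the 3′ UTR. By position, Fth1 is at chr19:10057193-10059582 (plus strand), Ftl1 at chr7:52713314-52715254 (minus), Slc40a1 at chr1:45964915-45982439 (minus), and Tfrc at chr16:32609006-32632880 (plus). These hairpins act after transcription, and RPKM reads message abundance, not translation.

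Hamp, the gene for hepcidin itself, was among the abundant messages of the liver. In lean mice of the obesity experiment it was at 1869, 1617, and 1052 RPKM unfed and at 2846, 3367, and 2237 RPKM fed. Every fed value lay above every unfed value, and Hamp rose by 0.92 on the log2 scale (log2(RPKM + 0.5), the scale of every log2 value here; SE 0.25, n = 3 each, Benjamini-Hochberg (BH) limma-adjusted p = 0.0240). Of the 10 genes, Hamp and Id1 were called in this comparison, where 23.4% of all 11431 genes tested were called. The call on Hamp was lost without unfed lean replicate 3 (log2 0.68, adjusted p = 0.0871), without fed lean replicate 2 (0.78, adjusted p = 0.0895), or without fed lean replicate 1 (0.90, adjusted p = 0.0670).

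Between the same lean groups, the summed RPKM of 8 sinusoidal endothelial markers was 97.1 to 117 unfed and 71.7 to 78.7 fed, without overlap, and that of 7 Kupffer cell markers was 52.3 to 63.5 and 39.3 to 53.0, with none at 0 throughout. Their part in the results on Hamp and on Id1 was not tested.

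In DIO mice Hamp did not pass the test after the meal. Hamp was at 1348, 1357, and 1714 RPKM unfed and at 1541, 921, and 1509 RPKM fed, so that the groups overlapped, and the log2 difference was -0.18 (SE 0.25, 95% interval -0.74 to 0.37, adjusted p = 0.705). The difference between the 2 meal effects was -1.10 (SE 0.36), with a limma p of 0.0106 before and 0.192 after adjustment, so it did not pass over all genes. Fed DIO livers lay below all fed lean livers in Hamp (log2 -1.11, SE 0.25, adjusted p = 0.0776), and unfed DIO and lean livers overlapped (-0.01, SE 0.25).

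Among the NRF mice, the higher Hamp values were again those of the fed group. It was at 266 and 236 RPKM at ZT10, at 233 and 291 RPKM at ZT14-unfed, and at 336 and 412 RPKM at ZT14-fed. Both fed values lay above the others. The log2 difference was 0.57 between ZT14-fed and ZT10 (SE 0.14, adjusted p = 0.0522) and 0.52 between ZT14-fed and ZT14-unfed (SE 0.14, adjusted p = 0.0768), where the median of all genes moved by 0.12. At 0.06 (SE 0.14), Hamp was nearly level between ZT10 and ZT14-unfed.

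In the vehicle-injected mice the fed and unfed values overlapped. Hamp was at 1294, 1527, 1564, and 1624 RPKM in unfed and at 960.6, 1029, 2011, and 1797 RPKM in fed vehicle livers. The fed group was split, with replicates 1 and 2 below and replicates 3 and 4 above every unfed liver, and the log2 difference was -0.12 (SE 0.23, 95% interval -0.61 to 0.37). With dex it was at 1629, 1936, 1458, and 1478 RPKM, with S961 at 2231, 1418, 1083, and 1911 RPKM, and with dex plus S961 at 1865, 1595, 1296, and 1894 RPKM. All 3 groups lay within or near the range of the fed vehicle livers, with log2 differences of 0.23, 0.22, and 0.26 (SE 0.23 each). The same vehicle libraries entered these comparisons.

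Without GR, Hamp was at 1638, 2272, 2315, and 1852 RPKM, against 1819, 1038, 1144, and 750 RPKM with AAV-GFP. The groups overlapped through AAV-GFP replicate 1 alone. The log2 difference was 0.82 (SE 0.23, adjusted p = 0.0621), and without AAV-GFP replicate 1 it was 1.05 (adjusted p = 0.00933). Of 8 fits with 1 library left out, that was the only one with a call on Hamp, and adjusted p reached 0.17 in the others. In the insulin experiment, Hamp was at 298, 272, 303, and 245 RPKM in L-IRSdKO and at 304, 151, 283, and 132 RPKM in fl/fl livers. The groups overlapped, with 2 low fl/fl livers, and the log2 difference was 0.45 (SE 0.26, adjusted p = 0.264), or 0.42 without L-IRSdKO replicate 1 (adjusted p = 0.340).

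**Figure D1:**
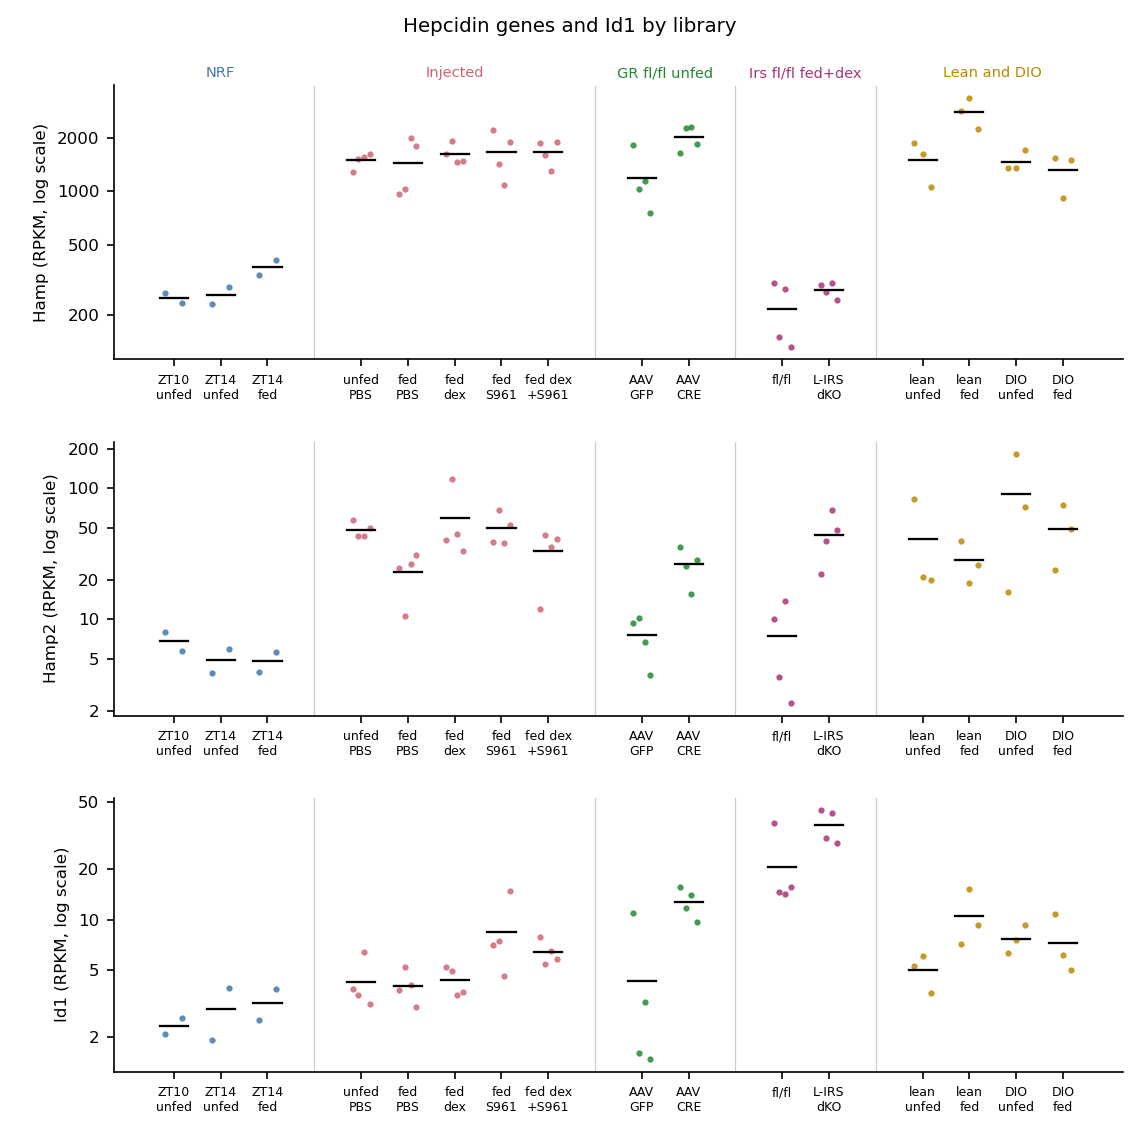
RPKM of Hamp, Hamp2, and Id1 (3 rows, log scales) in each of the 54 libraries, by group within the 5 experiments. Points are libraries and bars group means. Hamp2 of AAV-CRE (15.5 to 36.0 RPKM) lies above AAV-GFP (3.78 to 10.3), and L-IRSdKO (22.1 to 68.0) above fl/fl (2.30 to 13.8), while levels differ between experiments for all 3 genes.

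Hamp2, the second mouse hepcidin gene, was far less abundant than Hamp and gave the larger differences. In AAV-GFP livers it was at 9.39, 10.3, 6.74, and 3.78 RPKM, and in AAV-CRE livers at 36.0, 25.7, 15.5, and 28.5 RPKM. All 4 livers without GR lay above all 4 controls, and Hamp2 rose by 1.77 on the log2 scale (SE 0.30, n = 4 each, adjusted p = 0.00715). Of the 10 genes, Hamp2 and Id1 were called in this comparison, where 6.68% of the 11646 genes tested were called. The call on Hamp2 held in 11 of 11 alternative settings and in 8 of 8 fits with 1 library left out.

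In the insulin experiment, fl/fl livers had Hamp2 at 10.1, 3.62, 13.8, and 2.30 RPKM and L-IRSdKO livers at 22.1, 39.4, 68.0, and 48.3 RPKM. The groups did not overlap, and L-IRSdKO replicate 1 was the lowest of its group. Hamp2 rose by 2.69 (SE 0.53, n = 4 each, adjusted p = 0.0124), and by 2.98 without that library (adjusted p = 0.00526). It was the only one of the 10 genes called, where 17.4% of the 12963 genes tested were called. Without L-IRSdKO replicate 1, 5 of the 10 were called, where 23.3% of the 12935 genes tested were called. Besides Hamp2 these were Tfrc, Trf, Slc40a1, and Ftl1, each called in 1 of 8 fits with 1 library left out. In the other such fits their adjusted p reached 0.364, 0.223, 0.478, and 0.362.

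Cell markers moved with both results, and their part in them was not tested. The summed RPKM of 9 erythroid or blood markers was 440 to 578 with AAV-GFP and 631 to 1322 with AAV-CRE, without overlap and with none of the 9 at 0 throughout, and Id1, Id2, Id3, and Atoh8 below were compared between these same livers. That of 8 sinusoidal endothelial markers was 163 to 189 in fl/fl and 211 to 250 in L-IRSdKO livers, and that of 7 Kupffer cell markers was 154 to 282 and 268 to 341, with none at 0 throughout. In bulk liver, fewer cells of a type and less RNA per cell cannot be told apart.

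Hamp2 varied with food and injection too, without a call. It was at 57.7, 43.0, 43.1, and 49.7 RPKM in unfed and at 24.9, 10.6, 26.4, and 30.9 RPKM in fed vehicle livers. The groups did not overlap, with a log2 difference of -1.14 (SE 0.41, adjusted p = 0.131). Dex gave 40.7, 117.5, 44.7, and 33.6 RPKM and S961 gave 39.1, 68.9, 38.1, and 52.3 RPKM. Every dex and S961 value lay above every fed vehicle value, with log2 differences of 1.25 (SE 0.41, adjusted p = 0.0999) and 1.14 (SE 0.41, adjusted p = 0.185), and without dex replicate 2 the former was 0.85 (adjusted p = 0.318). Both together gave 12.1, 44.4, 35.9, and 41.0 RPKM, which overlapped with fed vehicle (0.46, SE 0.41). The interaction of dex and S961 was -1.92 (SE 0.58), with a limma p of 0.00351 before and 1.00 after adjustment.

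In the other experiments Hamp2 had no called difference. In the obesity experiment it was at 82.9, 21.0, and 19.9 RPKM in unfed lean, at 39.5, 18.9, and 26.2 RPKM in fed lean, at 16.3, 183, and 71.9 RPKM in unfed DIO, and at 23.7, 75.3, and 48.7 RPKM in fed DIO livers. All 4 groups overlapped, and the SE of each difference was 0.80. In the NRF mice it was at 7.98 and 5.77 RPKM at ZT10, 3.92 and 5.96 RPKM at ZT14-unfed, and 3.95 and 5.65 RPKM at ZT14-fed. Both ZT14-fed values lay below both ZT10 values (log2 -0.48, SE 0.24, adjusted p = 0.240), and the other pairs of groups overlapped.

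Id1, a gene that BMP signaling activates through SMAD1 and SMAD5 in hepatocytes and endothelial cells, moved in part with the hepcidin genes. In AAV-GFP livers it was at 10.9, 1.62, 3.24, and 1.48 RPKM, and in AAV-CRE livers at 15.6, 11.8, 13.99, and 9.71 RPKM. The groups overlapped through AAV-GFP replicate 1, which was also the highest control in Hamp. Id1 rose by 1.84 (SE 0.46, adjusted p = 0.0372), and by 2.39 without that library (adjusted p = 0.000418). The call held in 6 of 11 settings and in 2 of 8 fits with 1 library left out, with adjusted p between 0.0676 and 0.124 in the 6 fits without AAV-GFP replicates 2, 3, or 4 or AAV-CRE replicates 1, 2, or 3.

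After the meal in lean mice, Id1 was at 7.19, 15.2, and 9.34 RPKM, against 5.33, 6.07, and 3.68 RPKM before it. All fed values lay above all unfed values, and Id1 rose by 0.96 (SE 0.30, adjusted p = 0.0409). It held with 1 of 6 libraries left out only, fed lean replicate 1, and was lost in the other 5, with a log2 difference of 0.68 (adjusted p = 0.148) without fed lean replicate 2 and an adjusted p between 0.0553 and 0.137 in the other 4. In DIO mice it was at 6.35, 7.53, and 9.26 RPKM unfed and at 10.8, 6.13, and 5.02 RPKM fed, which overlapped (-0.13, SE 0.30), and the difference between the meal effects was -1.09 (SE 0.43, adjusted p = 0.269).

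In L-IRSdKO livers Id1 was at 44.8, 30.7, 43.0, and 28.4 RPKM and in fl/fl livers at 37.4, 14.6, 14.3, and 15.7 RPKM. The groups overlapped through fl/fl replicate 1 alone, and the log2 difference was 0.93 (SE 0.30, adjusted p = 0.0671), or 1.25 without it (adjusted p = 0.00804) and 0.82 without L-IRSdKO replicate 1 (adjusted p = 0.106). The fit without fl/fl replicate 1 was the only one of 8 such fits with a call on Id1 (adjusted p of up to 0.158 in the others). In fed mice, S961 gave 7.07, 7.43, 4.61, and 14.8 RPKM against 3.82, 5.23, 4.12, and 3.03 RPKM with vehicle. A single S961 liver, replicate 3, lay within the vehicle range, and the log2 difference was 0.88 (SE 0.26, adjusted p = 0.0946), or 1.12 without that liver (adjusted p = 0.0315). Id1 was called in 1 of 8 fits with 1 library left out, this one, and adjusted p reached 0.264 in the others. Dex plus S961 gave 7.86, 5.42, 6.53, and 5.86 RPKM, all above vehicle (0.61, SE 0.26, adjusted p = 0.141), and dex alone 5.25, 4.96, 3.58, and 3.71 RPKM, which overlapped with it (0.10, SE 0.26).

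Bmp6, the ligand, was low in whole liver, between 0.704 and 4.38 RPKM over all libraries. It was at 2.97, 2.18, and 2.13 RPKM in unfed lean and at 1.83, 0.704, and 0.938 RPKM in unfed DIO livers. No DIO value reached a lean value, and Bmp6 fell by 0.87 on the log2 scale (SE 0.21, adjusted p = 0.0424). Of the 10 genes it was the only one called, where 5.22% of the 11431 genes tested were called. The call held with 1 of 6 libraries left out, unfed DIO replicate 1 (-1.14, adjusted p = 0.00357), and was lost without any of the other 5, with log2 differences of -0.66 and -0.79 without unfed DIO replicates 2 and 3 and -0.74, -0.92, and -0.94 without lean replicates 1, 2, and 3 (adjusted p between 0.0758 and 0.127).

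Markers of the cells that make Bmp6 differed between the same groups. The summed RPKM of 8 sinusoidal endothelial markers was 53.6 to 72.4 in unfed DIO and 97.1 to 117 in unfed lean livers, with none at 0 throughout, and its part in the result was not tested. After the meal Bmp6 was at 1.18, 0.868, and 1.02 RPKM in DIO and at 1.52, 1.80, and 1.46 RPKM in lean livers. These groups did not overlap either (-0.46, SE 0.21, adjusted p = 0.258), and the endothelial sums were 66.3 to 73.3 and 71.7 to 78.7. Between fed and unfed lean livers the log2 difference in Bmp6 was -0.47 (SE 0.21, adjusted p = 0.134), again without overlap. In the remaining 4 experiments all groups overlapped with the groups they were compared with, and the differences ranged up to 0.34 in size.

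**Figure D2:**
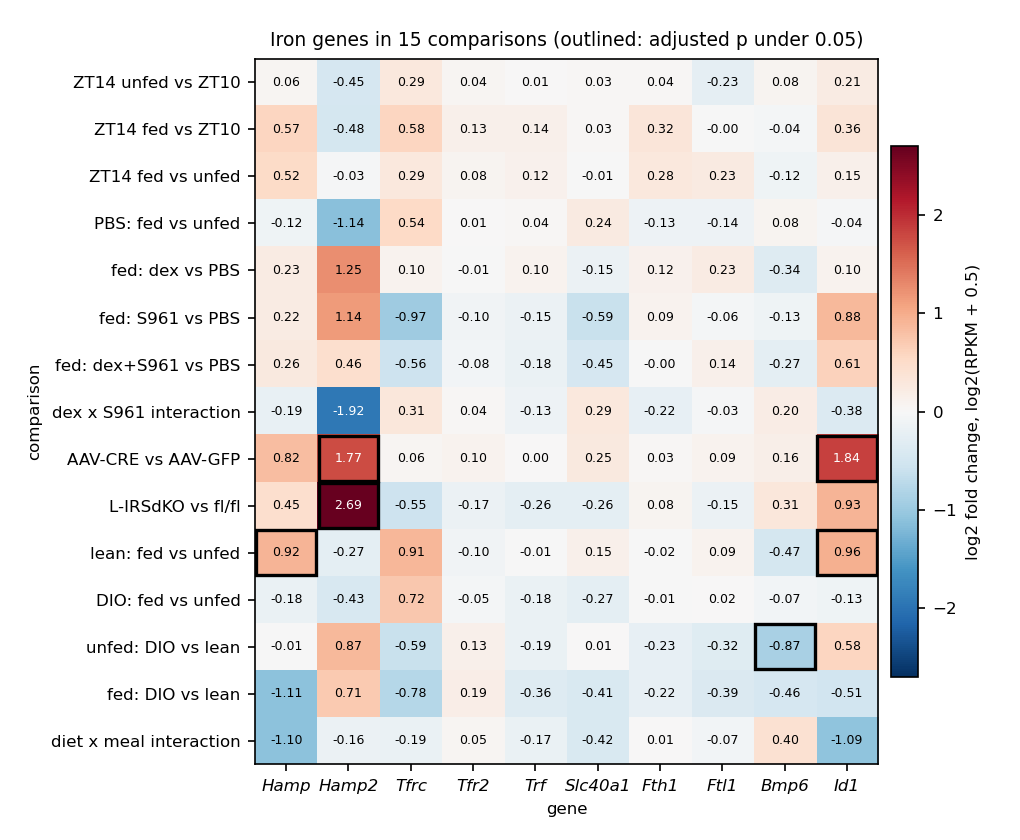
Log2 fold changes (log2(RPKM + 0.5)) of the 10 genes (columns) in 15 comparisons (rows), red for higher and blue for lower in the group named first. The 6 outlined cells had a BH-adjusted limma p under 0.05, all in Hamp, Hamp2, Id1, or Bmp6.

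In the other 11 comparisons none of the 10 genes was called by limma. The called share of all genes was 8.99% for ZT14-unfed against ZT10, 9.34% for ZT14-fed against ZT10, and 6.76% for ZT14-fed against ZT14-unfed. At an unadjusted p under 0.05 there were 0, 1, and 1 of the 10 genes, against 26.4%, 28.3%, and 27.7% of all genes. In the injected mice it was 3.13% for the meal, 3.19% for dex, 1.89% for S961, 10.6% for dex plus S961, and 0.00% for the interaction. At an unadjusted p under 0.05 there were 1, 1, 4, 1, and 1 of the 10, against 19.3%, 18.5%, 14.3%, 25.8%, and 4.56% of all genes. In the obesity experiment it was 7.65% for the meal in DIO mice, 0.507% for DIO against lean after the meal, and 0.744% for the interaction of diet and meal. At an unadjusted p under 0.05 there were 1, 5, and 3 of the 10, against 25.2% of all genes for the first, 2283 of 11431 for the second, and 1713 of 11431 for the third. The 5 genes of the fed DIO livers, Hamp, Tfrc, Trf, Slc40a1, and Ftl1, had lower means than in fed lean livers, and none passed adjustment. Over the 10 genes the median log2 difference was -0.40 there, and over all genes 0.01. The summed RPKM of 6 hepatocyte markers was also lower, at 43616 to 47457 in fed DIO and 52409 to 57384 in fed lean livers. These sums did not overlap, and their part in this was not tested.

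The wider BMP and hemojuvelin pathway was read from 18 further genes, 17 of them expressed. Without GR, 3 were higher and 0 lower, where 6.68% of all genes were called, and the median over the list was 0.20, against 0.08 over all genes. The 3 were Id3 (log2 1.92, SE 0.17, adjusted p = 0.000156) and Id2 (1.72, SE 0.19, adjusted p = 0.000709), relatives of Id1, and Atoh8 (0.91, SE 0.15, adjusted p = 0.00648), a transcription factor of the BMP response. Id3 was at 27.05, 14.7, 22.9, and 21.8 RPKM with AAV-GFP and at 83.2, 92.5, 68.7, and 81.7 RPKM with AAV-CRE. Those groups lay far apart, and the calls on all 3 genes held with any 1 library left out. Hemojuvelin (Hjv) was at 19.4 ± 1.49 and 18.7 ± 5.05 RPKM (SD, n = 4 each).

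Without Irs1 and Irs2, 3 of the 17 genes were higher and 0 lower, a share near the 17.4% called over all genes, with a median of 0.21 against 0.03. They were Atoh8 (2.02, SE 0.30, adjusted p = 0.00474), Smad9 (1.88, SE 0.40, adjusted p = 0.0147), a SMAD of the BMP pathway, and the ligand Bmp2 (0.66, SE 0.12, adjusted p = 0.00968). Atoh8 was at 5.71, 7.21, 6.11, and 2.54 RPKM in fl/fl and at 15.1, 22.7, 23.4, and 29.6 RPKM in L-IRSdKO livers, without overlap, and replicate 1 was again the lowest of its group. Without that library the differences were 2.20, 2.23, and 0.71, and each call held with any 1 library left out. The summed RPKM of 8 sinusoidal endothelial markers was 163 to 189 in fl/fl and 211 to 250 in L-IRSdKO livers, and its part was not tested. Id2 and Id3, both higher without GR, were not called here (0.35, SE 0.20, adjusted p = 0.249, and -0.26, SE 0.18, adjusted p = 0.360).

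After the meal in lean mice, 5 genes of the list were higher and 1 lower, where 23.4% of all genes were called, with a median of 0.09 against 0.08. Id3 rose by 2.45 (SE 0.34, adjusted p = 0.000957) and Hjv by 1.15 (SE 0.26, adjusted p = 0.0103), both with any 1 library left out. Id2 rose by 1.51 (SE 0.41, adjusted p = 0.0225), a call that was lost in 4 of 6 fits with 1 library left out, with an adjusted p of up to 0.0710. Id3 was at 21.9, 20.1, and 16.0 RPKM unfed and at 106, 113, and 103 RPKM fed. In DIO mice, 0 of the 17 genes passed the limma test after the meal, where 7.65% of all genes were called. Id3 was at 21.7, 37.0, and 72.4 RPKM unfed and at 65.7, 48.7, and 81.8 RPKM fed, with overlap (0.71, SE 0.34, adjusted p = 0.216). The difference between the meal effects on Id3 was -1.74 (SE 0.48, adjusted p = 0.128).

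In the uninjected NRF mice Id3 was at 16.1 and 19.9 RPKM at ZT10, 29.1 and 24.8 RPKM at ZT14-unfed, and 58.9 and 74.0 RPKM at ZT14-fed. It rose by 1.85 between ZT10 and ZT14-fed (SE 0.15, adjusted p = 0.0019) and by 1.28 from ZT14-unfed (SE 0.15, adjusted p = 0.00799), the latter with an adjusted p of up to 0.0754 when 1 library was left out. In the list, 2 genes were higher and 2 lower in either comparison, where 9.34% and 6.76% of all genes were called. In the vehicle-injected mice, Id3 rose with the meal by 1.11 (SE 0.21, adjusted p = 0.00975), the 1 gene of the list called, where 3.13% of all genes were called.

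Dex in fed mice gave the opposite sign in 3 genes of the list, with 0 higher, where 3.19% of all genes were called, and a median of -0.24 against -0.10. Id2 fell by 1.22 (SE 0.17, adjusted p = 0.000548), Id3 by 1.17 (SE 0.21, adjusted p = 0.00509), and Hjv by 1.00 (SE 0.16, adjusted p = 0.00148). Hjv was at 20.4, 20.8, 20.1, and 26.5 RPKM with vehicle and at 11.1, 8.70, 11.9, and 11.3 RPKM with dex, without overlap, and all 3 calls held with any 1 library left out. S961 raised Id2 (0.86, SE 0.17, adjusted p = 0.0108), the 1 gene of the list called, where 1.89% of all genes were called. With dex plus S961, Id3 was lower (-0.81, SE 0.21, adjusted p = 0.0201), a call lost in 3 of 8 fits with 1 library left out, with an adjusted p of up to 0.0567. The same vehicle libraries entered all of these. In unfed DIO against lean livers, Bmp2 was lower (-0.93, SE 0.23, adjusted p = 0.0461), a call lost in 5 of 6 such fits, with an adjusted p of up to 0.141. The summed RPKM of 8 sinusoidal endothelial markers was 53.6 to 72.4 in these DIO and 97.1 to 117 in these lean livers, and its part was not tested.

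**Figure D3:**
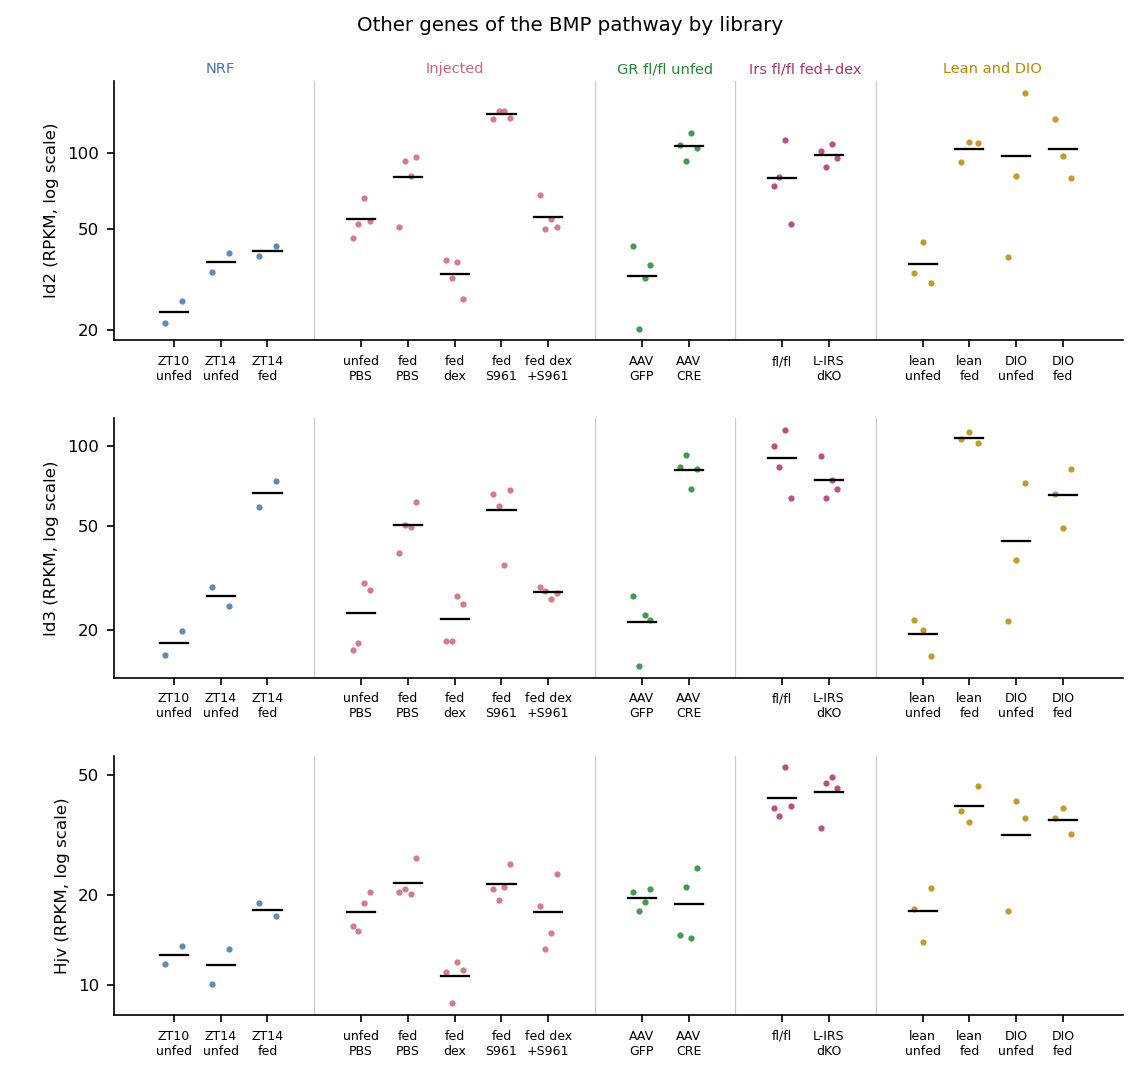
RPKM (log scales) of Id2, Id3, and Hjv in each of the 54 libraries by group, with bars at the group means. Id3 with AAV-CRE (68.7 to 92.5 RPKM) lies above AAV-GFP (14.7 to 27.05), fed lean livers (103 to 113) lie above unfed lean livers (16.0 to 21.9), and Hjv with dex (8.70 to 11.9) lies below fed vehicle (20.1 to 26.5).

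Tfrc, the receptor that takes up transferrin-bound iron, varied most among the genes of uptake and export. In fed mice it was at 20.8, 12.1, 20.8, and 5.74 RPKM with vehicle and at 7.55, 7.83, 9.16, and 3.27 RPKM with S961. The groups overlapped through vehicle replicate 4, and the log2 difference was -0.97 (SE 0.35, adjusted p = 0.185), or -1.35 without that library (adjusted p = 0.0244). This was the only one of 8 fits with 1 library left out in which Tfrc was called (adjusted p of up to 0.438 in the others). Replicate 4 of each injected group had a library number apart from the other 3 in the labels, and the 5 replicate 4 libraries deviated from their group means alike (r of 0.44 to 0.61 across genes). With a term for this series the difference was -0.97 with an adjusted p of 0.0438.

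In lean mice Tfrc was at 9.62, 5.04, and 7.70 RPKM unfed and at 20.2, 12.5, and 10.8 RPKM fed. All fed values lay above all unfed ones, with a log2 difference of 0.91 (SE 0.34, adjusted p = 0.0772). In DIO mice it was at 7.26, 4.72, and 2.80 RPKM unfed and at 5.75, 8.27, and 10.4 RPKM fed, which overlapped (0.72, SE 0.34, adjusted p = 0.216). Vehicle-injected mice had 10.4, 8.34, 7.13, and 10.3 RPKM unfed, against which 3 of 4 fed livers were higher (0.54, SE 0.35). Between AAV-CRE and AAV-GFP the difference was 0.06 (SE 0.21), with overlap.

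L-IRSdKO livers had Tfrc at 24.004, 17.8, 10.9, and 11.8 RPKM and fl/fl livers at 25.1, 28.2, 16.4, and 22.8 RPKM. The groups overlapped (-0.55, SE 0.26, adjusted p = 0.173). Without L-IRSdKO replicate 1 the difference was -0.76 (adjusted p = 0.0353).

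**Figure D4:**
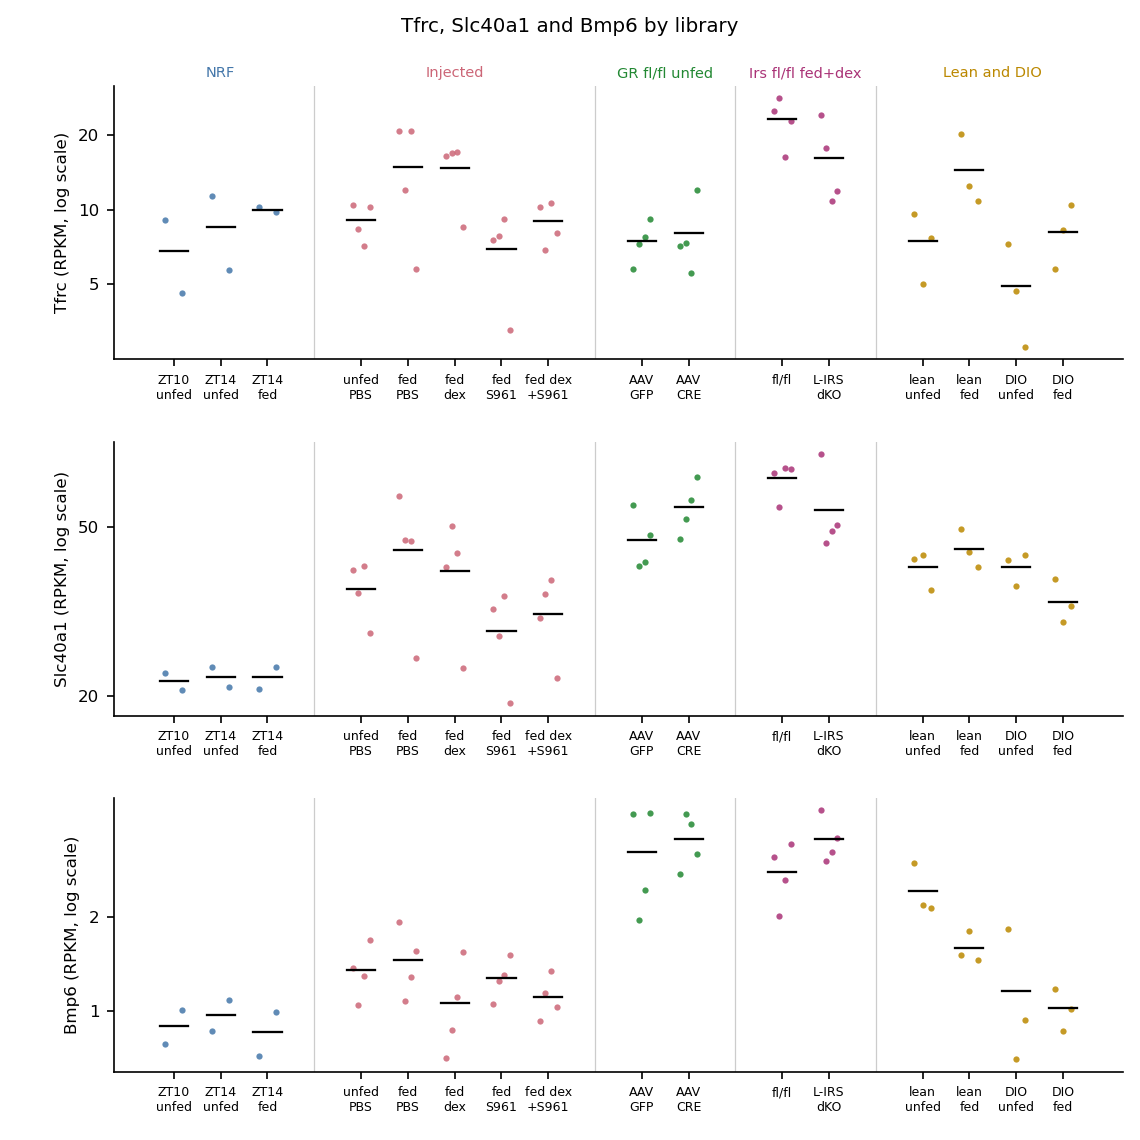
RPKM (log scales) of Tfrc, Slc40a1, and Bmp6 in each of the 54 libraries by group, with bars at the group means. Tfrc in fed lean livers (10.8 to 20.2 RPKM) lies above unfed lean livers (5.04 to 9.62), and Bmp6 in unfed DIO livers (0.704 to 1.83) below unfed lean livers (2.13 to 2.97).

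Slc40a1, the exporter that hepcidin binds, was at 58.9, 46.4, 46.2, and 24.6 RPKM in fed vehicle livers and at 32.03, 27.7, 34.4, and 19.3 RPKM with S961. The groups overlapped through vehicle replicate 4, with a log2 difference of -0.59 (SE 0.26, adjusted p = 0.313). With the term for the library series the p was 0.00678, and with dex plus S961, at 30.5, 34.6, 37.5, and 22.0 RPKM (-0.45), it was 0.0118. In each of these 2 groups, replicate 4 was the lowest liver, as it was with vehicle. With the series term, 2 of the 10 genes were called for S961 and 1 for dex plus S961, where 4.24% and 19.6% of all genes were called. The summed RPKM of the 7 Kupffer cell markers was 72.3 to 106 with vehicle, 48.9 to 72.5 with S961, and 55.1 to 64.3 with both, and that of the 8 endothelial markers was 114 to 122, 99.7 to 105, and 78.3 to 105. None was at 0 throughout, and their part in these results was not tested.

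L-IRSdKO livers had Slc40a1 at 74.0, 45.8, 48.8, and 50.4 RPKM and fl/fl livers at 66.9, 55.6, 68.6, and 68.4 RPKM. Replicate 1 lay above all fl/fl livers and the other 3 below them, and the log2 difference was -0.26 with that library and -0.42 without it (adjusted p = 0.0117). Fed DIO livers were at 37.7, 29.8, and 32.5 RPKM and fed lean livers at 49.3, 43.7, and 40.1 RPKM, without overlap (-0.41, SE 0.12, adjusted p = 0.112). Livers with and without GR overlapped (0.25, SE 0.13).

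Trf, the plasma carrier of iron, and Tfr2, a sensor of loaded transferrin on hepatocytes, had no called difference. Group means of Tfr2 differed within an experiment by at most 1.18-fold, from 89.3 to 106 RPKM in the obesity experiment, and those of Trf by at most 1.29-fold, from 4841 to 6265 RPKM there. With AAV-GFP and AAV-CRE, the means of Trf were 6108 and 6109 RPKM. In the insulin experiment Tfr2 was at 95.0, 88.4, 87.7, and 89.2 RPKM in L-IRSdKO and 95.4, 109, 95.7, and 105 RPKM in fl/fl livers, which did not overlap (-0.17, SE 0.07, adjusted p = 0.110). Trf was at 519, 406, 424, and 368 RPKM and 510, 540, 505, and 480 RPKM in the same livers, with replicate 1 of L-IRSdKO within the fl/fl range (-0.26, SE 0.10, adjusted p = 0.103). Without it the difference was -0.35 (adjusted p = 0.00511).

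The ferritin chains Fth1 and Ftl1, which store iron as subunits of one shell, had no called difference. Group means of Fth1 differed by at most 1.26-fold in an experiment (114 to 144 RPKM in the NRF mice), and those of Ftl1 by at most 1.31-fold (604 to 793 RPKM in the obesity experiment). Fed DIO livers had Ftl1 at 613, 547, and 650 RPKM and fed lean livers at 708, 796, and 876 RPKM, without overlap (-0.39, SE 0.17, adjusted p = 0.230). Unfed DIO and lean livers overlapped through DIO replicate 1, at 784 RPKM (-0.32, SE 0.17, adjusted p = 0.282), and without it the difference was -0.52 (adjusted p = 0.0352). That was the only call on Ftl1 among 6 fits with 1 library left out (adjusted p of up to 0.601 in the others). In L-IRSdKO livers the difference in Ftl1 was -0.15 (adjusted p = 0.169), or -0.20 without replicate 1 (adjusted p = 0.0383).

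Of 14 further genes of iron and heme uptake, Scara5 had the largest called difference. It was at 13.4, 9.17, 8.56, and 6.08 RPKM with AAV-GFP and at 0.361, 0.105, 0.049, and 0.142 RPKM with AAV-CRE, and fell by 3.85 (SE 0.22, adjusted p = 9.3e-06). In the insulin experiment it fell by 2.98 (SE 0.81, adjusted p = 0.0365), a call lost with any of the other 7 libraries left out (adjusted p of up to 0.0981), and by 3.91 without L-IRSdKO replicate 1 (adjusted p = 0.000144). Dex in fed mice raised Lcn2, a carrier of iron-binding siderophores, by 3.29 (SE 0.64, adjusted p = 0.00699), from 14.3, 11.9, 61.6, and 11.8 RPKM to 231, 243, 200, and 112 RPKM. Haptoglobin (Hp), which binds free hemoglobin, was lower without GR (-0.83, SE 0.15, adjusted p = 0.00783). Of the 12 genes of this list tested without GR, 0 were higher and 2 lower, where 6.68% of all genes were called. Of the 13 tested in L-IRSdKO livers, 2 were higher and 4 lower, where 17.4% of all genes were called. Steap2 was among the higher ones there (1.87, SE 0.31, adjusted p = 0.00653), a call that held with any 1 library left out.

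Of 12 genes of the interleukin-6, STAT3, and CREBH pathway, the receptor Il6ra was called in 3 comparisons and in an interaction. It was at 37.0, 21.1, 26.7, and 24.4 RPKM with AAV-GFP and at 11.9, 10.8, 8.70, and 9.58 RPKM with AAV-CRE, and fell by 1.35 (SE 0.16, adjusted p = 0.00112). After the meal in lean mice it fell by 1.51 (SE 0.17, adjusted p = 0.000366), from 34.5, 34.8, and 32.6 RPKM to 13.5, 9.88, and 11.7 RPKM, without overlap. Both of these calls held with any 1 library left out. With dex plus S961 it was at 36.9, 42.4, 37.8, and 44.7 RPKM, against 24.8, 21.7, 30.1, and 32.8 RPKM with vehicle, without overlap, and rose by 0.57 (SE 0.15, adjusted p = 0.0206), a call lost in 4 of 8 fits with 1 library left out, with an adjusted p of up to 0.0830. In DIO mice it was at 20.5, 29.2, and 18.3 RPKM unfed and 23.7, 18.7, and 17.7 RPKM fed, which overlapped, and the difference between the meal effects passed the test (1.35, SE 0.24, adjusted p = 0.0326). That call was lost in 9 of 12 fits with 1 library left out, with an adjusted p of up to 0.0884.

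Peaks of GR and FOXO1, the forkhead factor that insulin signaling keeps out of the nucleus, and DNase-hypersensitive sites (DHSs) were given as lists of positions, with 10446 GR, 8546 FOXO1, and 83592 DHS positions and no peak heights, and the GR and FOXO1 lists came from unfed livers at ZT14. Within 50 kb of the annotated start, 9 of the 10 genes had a GR position and 10 a FOXO1 position, against 48.5% and 51.6% of 10218 expressed genes. Within 20 kb it was 8 and 7, against 30.5% and 34.2%, with Hamp and Hamp2 sharing a locus. No GR position lay within 100 kb of Tfr2.

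The hepcidin genes differed at their starts. Hamp had a DHS, the GR position chr7:31729087-31729266, and the FOXO1 position chr7:31729097-31729276 centred at -0.09, -0.14, and -0.15 kb from the start (negative is upstream), in the stretch with GGCGCC and TTCTTGGAA printed above. Hamp2 had a DHS at -0.1 kb, chr7:31709216-31709383, but the nearest listed GR and FOXO1 positions were those of Hamp, at -19.98 and -19.99 kb. Of the 32-base stretches of this GR position, 6.04% also occur in the printed stretch upstream of Hamp2. How reads that match both places were handled was not examined. Further GR positions lay at -1.54 kb from Hamp in an exon of Usf2 and at -6.04 and -10.15 kb in its introns.

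**Figure D5:**
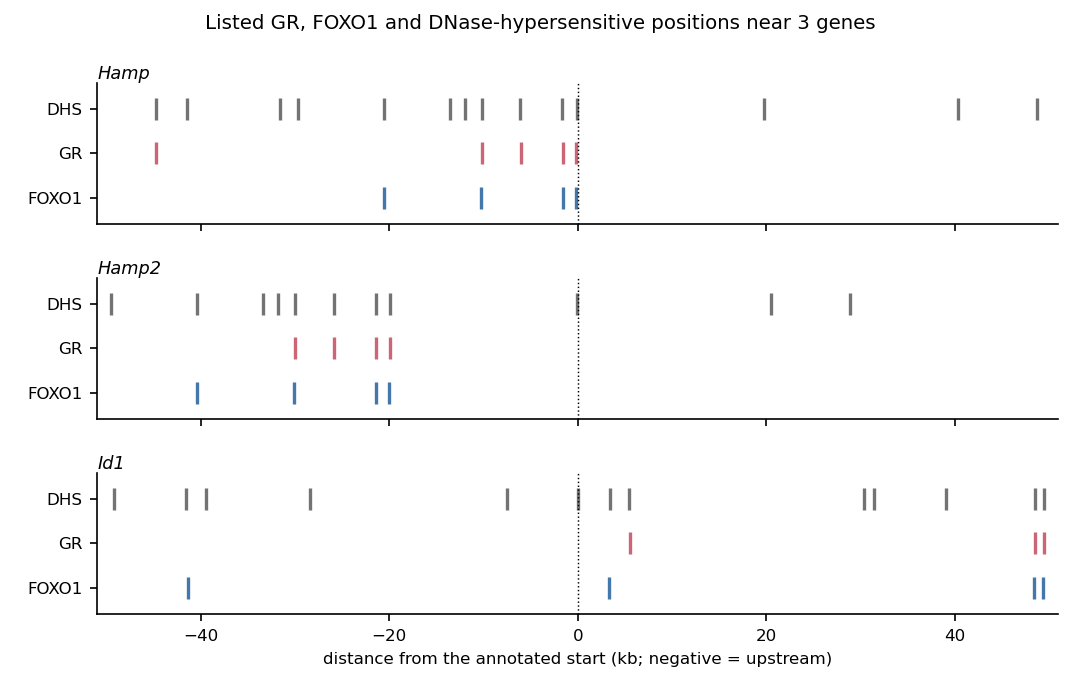
Listed DHS, GR, and FOXO1 positions (ticks) within 50 kb of the annotated starts of Hamp, Hamp2, and Id1, by distance in kb with upstream as negative. GR and FOXO1 positions stand at the start of Hamp (-0.14 and -0.15 kb), and at Hamp2 the nearest are at -19.98 and -19.99 kb, with a DHS alone at the start.

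Among the other genes, Trf had a FOXO1 position at its start (0.13 kb downstream, in an exon) and overlapping GR and FOXO1 positions at -4.26 and -4.28 kb, and Slc40a1 had overlapping positions in introns, 0.92 and 4.82 kb downstream for GR. Bmp6 had GR and FOXO1 positions in introns, 6.14 and 6.98 kb downstream, and Id1, at chr2:152561987-152563146, had FOXO1 and GR positions 3.31 and 5.5 kb downstream. Fth1 had them at -3.62 and -3.63 kb, and Tfrc had its nearest GR position at -38.65 kb. AGAACA was found in 6 of the 24 GR positions near the 10 genes and in 27.7% of all GR positions, and GTAAACA in 10 of the 24 FOXO1 positions and in 18.8% of all.

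Across the 54 libraries, with the mean of each experiment subtracted, the genes most like Hamp among 10518 expressed genes were Phb2 (Pearson's r = 0.68), Id1 (0.65), Adh1 (0.61), Atp5o (0.60), and Slc25a39 (0.60). For Id1 they were Smad7 (0.68), Acot3, Acot4, and Hamp (0.65 each), and Ddhd2 (0.64), and for Tfrc they were Mcfd2 (0.73), 1110051M20Rik (0.72), Arfgap2 (0.70), Fyb2 (0.69), and Amd1 (0.68). Among the 10 genes, Trf and Slc40a1 (0.70), Hamp and Id1 (0.65), Tfrc and Slc40a1 (0.58), Tfrc and Trf (0.55), and Fth1 and Ftl1 (0.52) went together, while Hamp and Hamp2 reached 0.33 and Hamp and Bmp6 0.16. After subtraction of the group means, Hamp and Id1 were at 0.53, so that they also went together among livers of one group. These are descriptions over libraries that share groups, depth, and library series.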

How the data were processed

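The authors sequenced liver RNA, aligned it to mm9 with STAR, and deposited values as RPKM per RefSeq transcript, and they used DESeq2 on counts that were not used here. RPKM corrects for depth and length, not for a few abundant genes, and the read strand counted is not given in the sources used here. Peak lists, called with HOMER, were deposited as positions without a score. Of 35707 RefSeq IDs, 35402 had a symbol, and 0 value columns were left unused. The members and gene lists were chosen with earlier results of these data known. limma 3.58.1 (R 4.3.3) fitted the groups of an experiment jointly, with a variance trend, to log2-transformed RPKM after 0.5 was added. Genes whose experiment mean was below 0.5 RPKM were dropped, p-values were BH-adjusted over the rest, and an adjusted p under 0.05 was called. Called genes of the lists were open to naming, up to 3 per list and comparison by size. Only some of these are named, so a gene of a list that goes unnamed may still have been called. The further genes of iron export are not described. No replicate block was used, since same-numbered libraries did not deviate together outside the injected mice. In the injected mice the replicate 4 libraries did, and the main fit there held no term for it. The term for library series was fitted as an alternative. Per the labels each library is a single mouse. Peaks and sequences were read with Python 3.11.15 from the mm9 genome (NCBIM37) and GENCODE M1 annotation, in which Tfr2 is listed under an older symbol. The fit was tested on simulated data. Alternatives were other pseudocounts, filters, scalings, RefSeq IDs, a fit without trend, a block for replicate number, fits of only the groups compared, a term for library series, a threshold of 0.01, other distances, and each library left out in turn. H3K27Ac was not analysed here.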

Additional observations from a re-analysis of the deposited data

Results flagged for a closer look

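Of 90 pairs of gene and group with 4 libraries, 9 held a library whose gap to its neighbours was large for the range of its group, and chance alone sets apart about 1 in 20. Among the injected mice, Hamp2 was at 117.5 RPKM in dex replicate 2 (the other 3 at 33.6 to 44.7), Tfrc at 8.49 RPKM in dex replicate 4 (16.5 to 17.2), Tfr2 at 43.8 RPKM in S961 replicate 3 (77.7 to 83.3), and Trf at 4313 RPKM in fed vehicle replicate 4 (4765 to 4795) and at 3413 RPKM in S961 replicate 4 (4379 to 4563). In the other experiments, Trf was at 6908 RPKM in AAV-GFP replicate 3 (5750 to 5920), Slc40a1 at 55.6 RPKM in fl/fl replicate 2 (66.9 to 68.6) and at 74.0 RPKM in L-IRSdKO replicate 1 (45.8 to 50.4), and Id1 at 37.4 RPKM in fl/fl replicate 1 (14.3 to 15.7). The effect of the meal on Il6ra differed between DIO and lean mice by 1.35 on the log2 scale (interaction, limma BH-adjusted p = 0.0326).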

How the results depend on the processing

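Over 2927 alternative values of the 10 genes, 156 differed in sign from the main one, 0 of them in the 6 called pairs. The number of the 10 genes called moved as follows. For ZT14-fed against ZT10 it was 1 instead of 0 with a pseudocount of 0.1, a filter at a mean of 2 RPKM, all RefSeq IDs, quantile normalization, median-ratio scaling, or the compared groups alone. For S961 it was 1 with the replicate block and 2 with the library series term instead of 0, and for dex plus S961 1 with either. For AAV-CRE against AAV-GFP it was 1 instead of 2 without a filter, with median-ratio scaling, without the variance trend, or at a threshold of 0.01, and 3 with a filter at 2 RPKM (Hamp, adjusted p = 0.0480). For L-IRSdKO it was 2 instead of 1 with the replicate block (Id1, adjusted p = 0.0441) and 0 at 0.01. For the meal in lean mice it was 0 instead of 2 without a filter or at 0.01, 1 with median-ratio scaling, quantile normalization, or the replicate block, and 4 with the compared groups alone. For DIO against lean it was 0 instead of 1 in unfed mice without a filter, with a filter at 2 RPKM, at 0.01, or with the compared groups alone, and 1 instead of 0 in fed mice with the compared groups alone. The replicate block changed no other count, and the cause of these moves was not tested. With 1 library left out, the counts ranged from 0 to 1 for S961, 1 to 3 for AAV-CRE, 1 to 5 for L-IRSdKO, 0 to 1 for the meal in lean mice, and 0 to 2 for unfed DIO against lean, and stayed at 0 in the rest. In groups left with 1 library, that library was assumed to vary like the others. Counts of peaks near the genes moved only with the distance, as given. Depth read from the spacing of RPKM values was lowest in the insulin experiment, and genes near 1 RPKM such as Bmp6 rest on few reads.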

Other observations

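Enzymes of heme synthesis and breakdown were read from 11 genes. Without GR, 2 were higher and 2 lower, where 6.68% of all genes were called. Alas1 was lower (log2 -0.70, SE 0.17, limma BH-adjusted p = 0.0357) and Hmox1 higher (0.81, SE 0.20, adjusted p = 0.0403). These 2 calls held in 2 and 1 of 8 fits with 1 library left out, with an adjusted p of up to 0.1 and 0.126. Alad, the second enzyme of heme synthesis, was at 33.1, 20.2, 26.1, and 26.9 RPKM with AAV-GFP and at 81.5, 72.5, 57.3, and 69.1 RPKM with AAV-CRE, without overlap, and rose by 1.39 on the log2 scale (SE 0.15, limma BH-adjusted p = 0.000561). The summed RPKM of 9 erythroid or blood markers was 440 to 578 and 631 to 1322 in these livers, and its part in this was not tested. After the meal Alad rose by 0.85 in lean mice (SE 0.13, adjusted p = 0.00168) and by 1.18 in NRF mice (SE 0.12, adjusted p = 0.00512), the latter with an adjusted p of up to 0.0650 when 1 library was left out. In the list, 1 gene was higher and 1 lower in lean mice, and 1 higher and 0 lower in NRF mice. Of all genes, 23.4% and 6.76% were called there. With dex plus S961 Alad fell by 0.65 (SE 0.13, adjusted p = 0.00384), where 1 gene of the list was higher and 1 lower and 10.6% of all genes were called. In L-IRSdKO livers, at 24.96, 12.1, 10.6, and 12.2 RPKM against 20.7, 34.1, 24.6, and 33.9 RPKM, Alad fell by 0.95 (SE 0.27, adjusted p = 0.0418), a call lost in 6 of 8 fits with 1 library left out (adjusted p of up to 0.111), and by 1.22 without L-IRSdKO replicate 1 (adjusted p = 0.00212). In that comparison 1 gene of the list was higher and 2 lower, where 17.4% of all genes were called.

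Pcbp1, a chaperone that loads iron into ferritin, rose after the meal in lean mice by 0.52 (SE 0.08, adjusted p = 0.00122) and in DIO mice by 0.46 (SE 0.08, adjusted p = 0.00773), and Slc11a2, an iron transporter, by 0.60 (SE 0.09, adjusted p = 0.00125) and 0.48 (SE 0.09, adjusted p = 0.0118). The calls held with any 1 library left out, other than that on Slc11a2 in DIO mice, which was lost in 1 of 6 such fits (adjusted p = 0.0572). Cd163, the hemoglobin scavenger receptor of Kupffer cells, was lower after the meal in lean mice (-0.96, SE 0.18, adjusted p = 0.00365) and in unfed DIO against lean livers (-0.99, SE 0.18, adjusted p = 0.0131). The summed RPKM of 7 Kupffer cell markers was 52.3 to 63.5 in unfed lean, 39.3 to 53.0 in fed lean, and 47.4 to 68.2 in unfed DIO livers, and its part in this was not tested.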
